A study of Homo sapiens with 6 samples.

Results

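The E2F transcription factors and their DP partners were followed in LN229 cells, an established human glioblastoma line, grown untreated or with ursodeoxycholic acid (UDCA), a hydrophilic bile acid given to patients with cholestasis. The family was taken by name: E2F1 to E2F8, TFDP1 and TFDP2, which makes 10 genes of the 33890 in the deposited table. All 10 were listed and met the filter for testing, at least 1 FPKM in 3 or more of the 6 libraries. E2F1, E2F2 and E2F8 met it through the control libraries alone. The labels give 2 groups of 3 libraries of polyadenylated RNA, untreated LN229 cells and LN229 cells held in 800 µM UDCA for 48 h, and both groups grew in the same serum-supplemented medium. LN229 is a single line, and the labels do not say whether replicate libraries are independent cultures, so each p-value reflects the spread among these libraries alone, which may be technical. Levels are FPKM (reads per kilobase of merged exon length, scaled to the total reads of the library), given as the value in each library or as mean ± SD over n = 3.

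E2F proteins bind DNA together with a DP protein and set the transcription of genes for DNA synthesis and cell division. E2F1, E2F2 and E2F3 are known as activators that the retinoblastoma protein holds inactive until cyclin-dependent kinases phosphorylate it. E2F4 and E2F5 repress the same kind of gene together with the pocket proteins p107 and p130, and E2F6 represses through a Polycomb complex without pocket proteins. E2F7 and E2F8, called atypical, bind DNA without a DP partner and repress in the later part of S phase, and their genes are themselves known E2F targets.

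With UDCA the family split by member. E2F1, E2F2 and E2F8 fell to or near 0, E2F7 and TFDP1 fell to a fraction of their control level, and E2F3 stayed close to it. E2F4 and E2F5 rose and E2F6 was slightly higher. At an adjusted p under 0.05 (limma, over all genes tested) 6 of the 10 members were lower and 3 higher, where 80.8% of all 14380 genes tested were called, 35.7% as lower and 45.1% as higher. The count of calls is thus near the share of all genes, and the members differ in the size and direction of the change. The groups did not overlap in any of the 10 members, as in 82.8% of all genes tested. E2F1, E2F2 and E2F8 were under 1 FPKM in every UDCA library and passed the filter through control alone. Their direction and lack of overlap were thus fixed by the filter and lend no support, and only the size of their change is described. In bulk RNA, fewer cells that express a gene and less RNA per cell cannot be told apart.

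Depth was similar, from 15988951 to 17743022 reads per library over the listed genes. The share of reads from mitochondrial genes was 3.13% to 3.16% in control libraries and 0.0263% to 0.0271% with UDCA. Its part in the results below was not tested beyond totals taken without those genes, under which 6 members were again lower and 3 higher. Of 8 markers of glioma and astrocyte lineage, 7 had a group mean of at least 1 FPKM in both groups. GFAP was under it in both. The 8 markers summed to 749 to 765 FPKM in control and 164 to 167 with UDCA. That fall was carried mostly by S100B, NES, VIM and SOX2, and the means of CD44 and GFAP were lower as well. OLIG2 and EGFR went the other way, with higher means under UDCA. The leukocyte and endothelial markers summed to under 1 FPKM in every library, with no gene at 1 FPKM. The epithelial markers summed to 3.36 to 3.87 FPKM in control and 5.45 to 6.13 with UDCA, with CDH1 at 0 in control, and the fibroblast markers to 2.59 to 2.99 and 2.81 to 3.31 FPKM.

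The sequences before the transcription starts are shown first for the members whose levels contrast most, because E2F1 and E2F2 fell steeply and E2F3 changed little, and all 3 carry the same motif before a start. Each stretch runs from 150 to 11 bases before the RefSeq start (GRCh38.p14), 5′ to 3′ on the gene's strand, and capitals mark each match on either strand to an E2F motif, spelled as TTTCCCGC, TTTCCCGG, TTTCGCGC, TTTCGCGG, TTTGCCGC, TTTGCCGG, TTTGGCGC or TTTGGCGG.
E2F1 (chr20:33686396-33686535, minus strand): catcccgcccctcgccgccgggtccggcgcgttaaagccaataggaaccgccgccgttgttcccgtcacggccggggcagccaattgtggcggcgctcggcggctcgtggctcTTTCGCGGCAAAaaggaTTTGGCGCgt
E2F2 (chr1:23531244-23531383, minus strand): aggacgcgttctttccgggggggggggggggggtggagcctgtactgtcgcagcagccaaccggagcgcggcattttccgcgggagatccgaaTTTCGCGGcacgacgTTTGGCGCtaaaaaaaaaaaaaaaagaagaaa
E2F3, upstream start (chr6:20401729-20401868, plus strand): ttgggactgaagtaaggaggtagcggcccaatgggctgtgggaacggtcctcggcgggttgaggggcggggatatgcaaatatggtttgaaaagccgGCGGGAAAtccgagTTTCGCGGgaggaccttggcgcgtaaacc
E2F4 (chr16:67192005-67192144, plus strand): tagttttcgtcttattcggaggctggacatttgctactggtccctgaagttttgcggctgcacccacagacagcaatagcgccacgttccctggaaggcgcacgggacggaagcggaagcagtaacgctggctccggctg
E2F6 (chr2:11466172-11466311, minus strand): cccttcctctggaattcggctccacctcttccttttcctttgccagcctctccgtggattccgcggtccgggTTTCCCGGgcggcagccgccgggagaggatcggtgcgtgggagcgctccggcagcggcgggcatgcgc
E2F7 (chr12:77065580-77065719, minus strand): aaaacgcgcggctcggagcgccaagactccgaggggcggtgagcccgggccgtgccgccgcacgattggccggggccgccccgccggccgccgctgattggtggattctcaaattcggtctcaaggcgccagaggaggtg

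In the whole window of 300 bases (250 before the start and 50 after it), the E2F motif occurred 3 times at E2F1, with a pair of overlapping matches that begin 37 and 33 bases before the start and another 20 bases before it. It occurred 2 times at E2F2, 57 and 42 bases before the start, and 2 times at the upstream start of E2F3, 53 and 39 bases before it. Of 35116 windows of this length in RefSeq, 6.19% held at least 1 match and 0.379% held at least 2. The motif occurred 2 times at E2F6 and 1 time at TFDP1 and at the most upstream start of TFDP2, where the match lies after the start. The windows of E2F4, E2F7 and the downstream start of E2F3 held none of these letters. A match describes the sequence and is no evidence of binding. Of the 10 members 8 had an entry in the table of promoters, and E2F5 and E2F8 were not among them.

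The box bound by the factor NF-Y, spelled CCAAT, occurred 4 times at E2F7 and 4 times at the upstream start of E2F3, as in 0.991% of all windows with 4 or more, and 3 times at E2F1. The cell-cycle homology region (CHR), spelled TTTGAA, occurred at the upstream start of E2F3 and at the downstream starts of TFDP2, where 15.2% of all windows hold it. The motifs were chosen with these promoters in view. The map of motif matches shows that the E2F matches of the 3 activators lie within 60 bases before their starts.

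**Figure D1:**
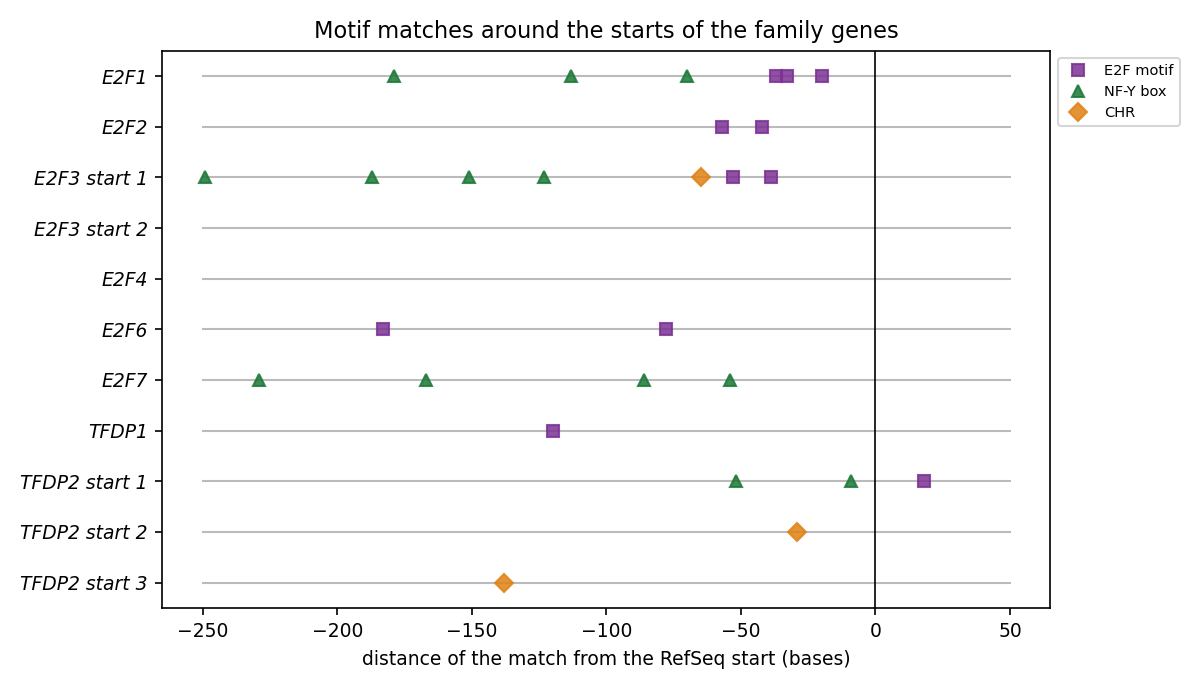
Positions of motif matches on either strand in the promoter windows of 8 members, as the distance in bases of the first base of a match from the RefSeq start (0). E2F1, E2F2 and the upstream start of E2F3 have 2 or 3 E2F matches close before the start, whereas E2F4 and E2F7 have none in the window.

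E2F1 (chromosome 20, 33675683 to 33686404, minus strand), the activator best known as the target of the retinoblastoma protein, stood at 33.9, 34.5 and 36.1 FPKM in control replicates 1 to 3 and at 0.975, 0.586 and 0.918 FPKM with UDCA. The filter fixed that the groups did not overlap, so only the size of the change is described. In the 3 UDCA libraries 103 reads remained, against 4504 in control. The level with UDCA was 2.37% of control, a log2 change of -4.30 (SE 0.086, adjusted p = 2.11e-08, limma) on the log2(FPKM + 1) scale, which understates changes near or under 1 FPKM.

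E2F2 (chromosome 1, 23506430 to 23531220, minus strand), an activator with roles that overlap those of E2F1, stood at 6.77, 6.47 and 6.69 FPKM in control. With UDCA it was listed at 0 in replicates 1 and 2 and at 0.0216 FPKM in replicate 3, on 2 reads in all against 1870 in control. By reads it was 906-fold lower, with an exact binomial 95% interval of 251 to 7490 that covers counting error only, and the log2 change was -2.92 (SE 0.056, adjusted p = 1.88e-08, limma).

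E2F3 (chromosome 6, 20401906 to 20493715, plus strand) is the third activator and gives a long and a short protein from its upstream and downstream starts, which a value per gene cannot separate. It stood at 9.38, 9.11 and 9.76 FPKM in control and at 8.55, 8.71 and 8.97 FPKM with UDCA. The lowest control library lay just above the highest UDCA library. The difference was small, with a log2 change of -0.096 (SE 0.038, 95% interval -0.19 to -0.0057, adjusted p = 0.0499, limma). Leaving out a library ended that call in 4 of 6 cases, namely control replicate 1 (adjusted p = 0.0998), control replicate 3 (0.149), UDCA replicate 1 (0.134) or UDCA replicate 2 (0.107), and the adjusted p ran from 0.00282 to 0.149 over 13 alternatives, 5 of which kept the call.

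In control E2F1 was 3.70-fold above E2F3, whereas with UDCA it was 10.6-fold below it. The log2 ratio of E2F1 to E2F3 went from 1.89 ± 0.033 to -3.44 ± 0.40 (SD, n = 3 in each group). Its difference of -5.33 had p = 0.1 by an exact 2-sided permutation test, the smallest value that 3 against 3 allows. The same p, before and after adjustment over the 4 ratios compared, held for E2F1 to E2F4, E2F7 to E2F6 and TFDP1 to TFDP2. That smallest value lies above the threshold used for calls, so no ratio could have passed. The filter had also fixed the direction of E2F1, and the genes were chosen with earlier results of these data known. These p-values therefore decide nothing, and only the size of the E2F1 to E2F3 ratio is described.

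**Figure D2:**
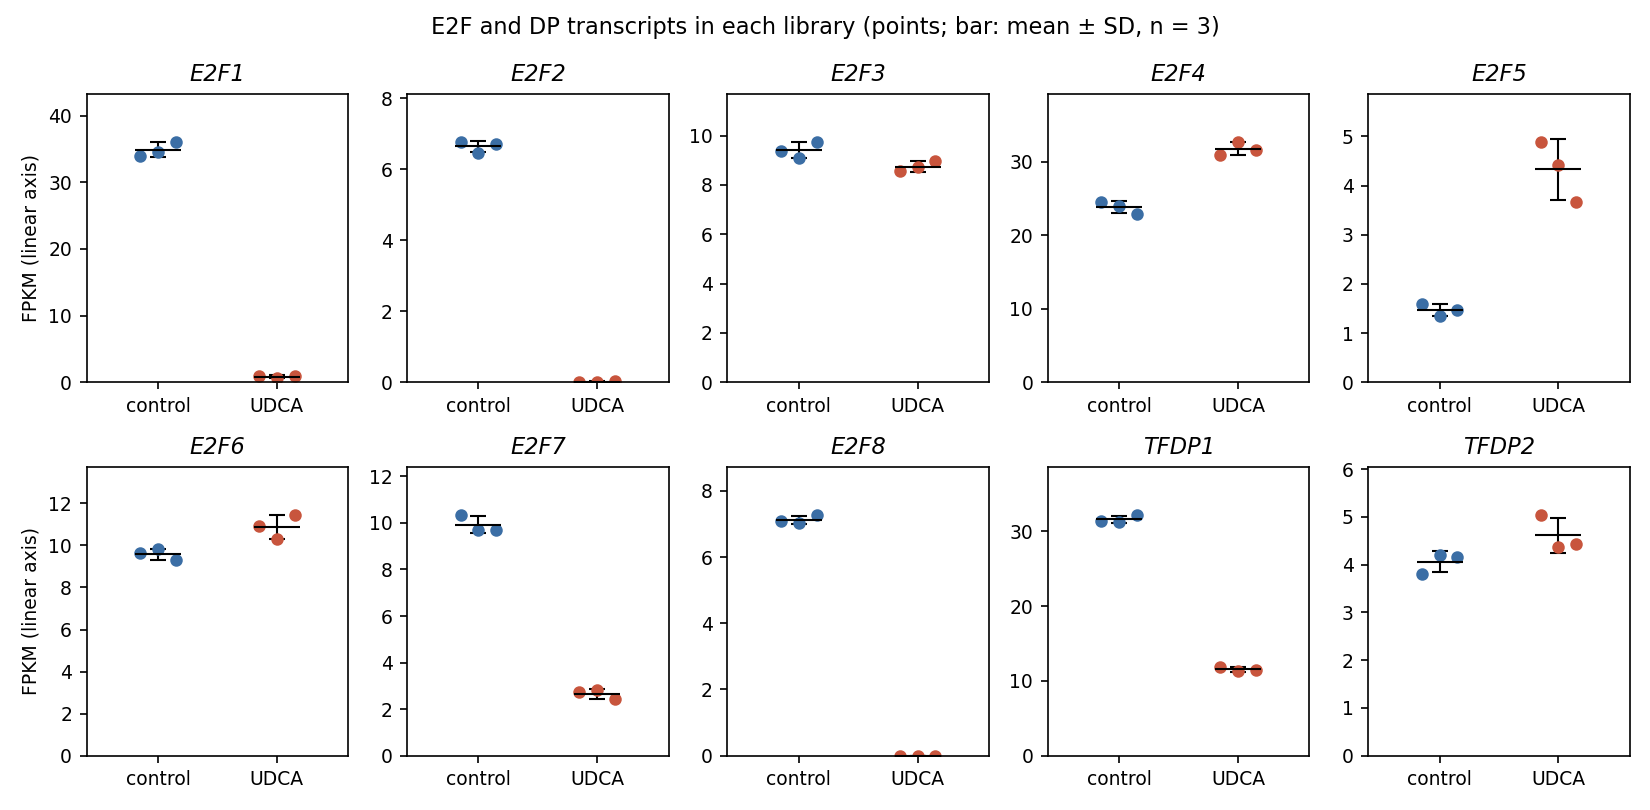
FPKM (linear axes from 0) of the 10 members in each library, with control in blue and UDCA in red, points for the 3 libraries of a group and bars for mean ± SD. E2F1, E2F2 and E2F8 lie at or near 0 with UDCA, E2F7 and TFDP1 lie well under control, and E2F4 and E2F5 lie above it.

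E2F4 (chromosome 16, 67192169 to 67198918, plus strand), the most abundant repressor and a subunit of the DREAM complex of quiescent cells, stood at 24.5, 24.0 and 22.9 FPKM in control and at 30.9, 32.7 and 31.6 FPKM with UDCA. It rose 1.34-fold, from 23.8 ± 0.827 to 31.8 ± 0.915 FPKM (log2 change 0.40, SE 0.035, adjusted p = 3.12e-05, limma). All UDCA libraries lay above all control libraries.

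E2F5, the other repressor that works with pocket proteins, was the member with the largest rise. It stood at 1.59, 1.34 and 1.46 FPKM in control and at 4.90, 4.42 and 3.67 FPKM with UDCA, a 2.95-fold rise (log2 change 1.11, SE 0.096, adjusted p = 3.21e-05, limma). UDCA replicate 3 was the lowest of its group and still above every control library. E2F5 had the lowest level of the family in control, on 448 reads in all. Exons of genes on the opposite strand cover 18.6% of its exon bases, mostly C8orf59, which went from 5.71 ± 0.847 to 9.84 ± 0.350 FPKM. How the authors counted shared bases is not given in the sources used here, so the level of E2F5 is uncertain to that extent.

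E2F6 (chromosome 2, 11444375 to 11466177, minus strand) stood at 9.62, 9.83 and 9.31 FPKM in control and at 10.9, 10.3 and 11.4 FPKM with UDCA. The groups lay close together without overlap, and the gene was called higher with a log2 change of 0.17 (SE 0.045, adjusted p = 0.0116, limma), where the median gene rose by 0.095. The call was lost with median-ratio scaling (log2 change 0.064, adjusted p = 0.231) and with quantile normalization (adjusted p = 0.134), over a range of 0.00542 to 0.231. Its processed pseudogene E2F6P1, which can share reads with it, was at 1.93 ± 0.296 and 2.12 ± 0.308 FPKM.

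The atypical repressors both fell. E2F7 (chromosome 12, 77021247 to 77065580, minus strand) stood at 10.3, 9.70 and 9.70 FPKM in control and at 2.72, 2.83 and 2.43 FPKM with UDCA, 3.73-fold lower (log2 change -1.58, SE 0.056, adjusted p = 3.00e-07, limma). E2F8 (chromosome 11, 19224063 to 19241620, minus strand) stood at 7.10, 7.03 and 7.27 FPKM in control, on 489, 501 and 534 reads. It had no read in any UDCA library, so its level was at least 492-fold lower, taking 3 reads in the UDCA group as the floor, or 0.0145 FPKM (log2 change -3.02, SE 0.054, adjusted p = 1.36e-08, limma). E2F7 was 1.39-fold above E2F8 in control. With UDCA, E2F7 kept 26.8% of its control level and E2F8 was not detected.

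The DP partners diverged as well. TFDP1 (chromosome 13, 113584721 to 113641470, plus strand), which encodes the main partner DP1, stood at 31.3, 31.3 and 32.1 FPKM in control and at 11.9, 11.3 and 11.4 FPKM with UDCA. It was 2.74-fold lower (log2 change -1.38, SE 0.028, adjusted p = 2.42e-08, limma). TFDP2 (chromosome 3, 141944428 to 142149544, minus strand) stood at 3.81, 4.21 and 4.17 FPKM in control and at 5.04, 4.38 and 4.43 FPKM with UDCA. The groups were adjacent, and the difference of 0.15 on the log2 scale (95% interval -0.0033 to 0.30) did not pass (adjusted p = 0.0656, limma). It passed with voom on recovered reads (adjusted p = 0.00725), over a range of 0.00725 to 0.426. TFDP1 made up 88.6% ± 0.503 of the summed DP FPKM in control and 71.5% ± 1.10 with UDCA.

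**Figure D3:**
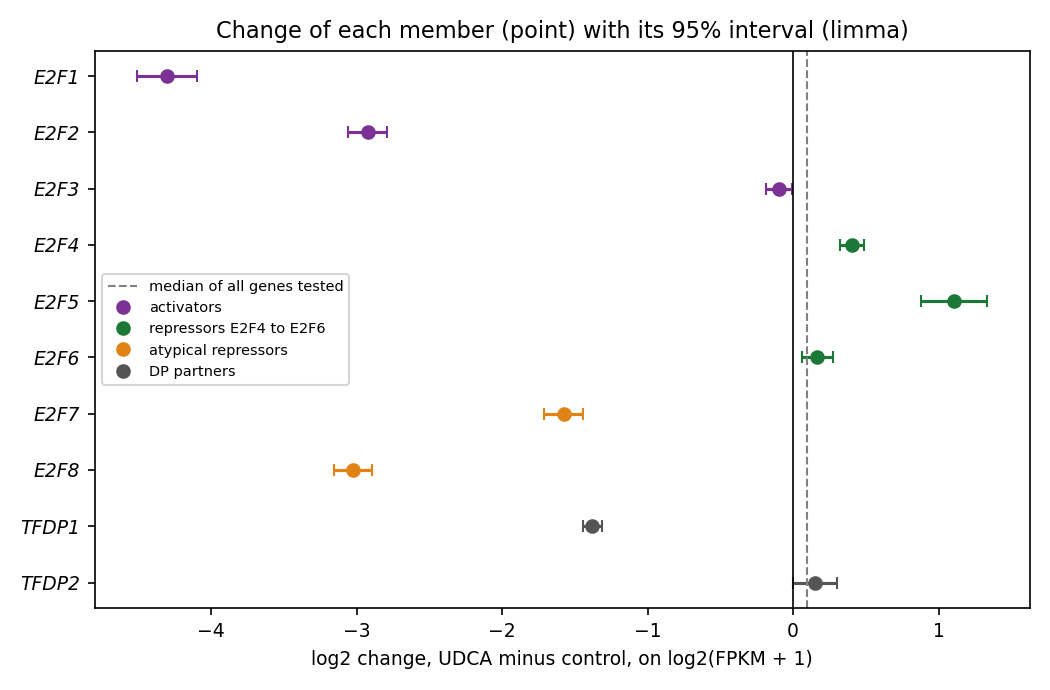
Log2 change of each member, UDCA minus control on log2(FPKM + 1), with its 95% interval from limma. The activators E2F1 and E2F2, both atypical members and TFDP1 lie left of 0, E2F3 lies just left of it, and E2F4, E2F5 and E2F6 lie right of it. The dashed line is the median of all genes tested (0.095).

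The order of the levels per length changed with these shifts. In control it ran E2F1, TFDP1, E2F4, then E2F7, E2F6 and E2F3, then E2F8, E2F2, TFDP2 and E2F5. Neighbouring ranges over the 3 libraries overlapped between E2F7 and E2F6 and between E2F6 and E2F3. With UDCA it ran E2F4, TFDP1, E2F6, E2F3, TFDP2, E2F5, E2F7, E2F1, E2F2 and E2F8. There the ranges overlapped between TFDP1 and E2F6, between TFDP2 and E2F5, and between E2F2 and E2F8. E2F1, the highest of the family in control, thus stood eighth with UDCA.

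The summed FPKM of E2F1 to E2F8 was 103 ± 0.716 in control and 59.2 ± 0.316 with UDCA. The activators fell from 50.9 ± 1.43 to 9.58 ± 0.306 FPKM, with little of that in E2F3. The atypical pair E2F7 and E2F8 fell as well, from 17.0 ± 0.355 to 2.66 ± 0.206 FPKM. E2F4 and E2F5 together rose from 25.3 ± 0.875 to 36.1 ± 0.952 FPKM, and E2F6 from 9.59 ± 0.262 to 10.9 ± 0.580 FPKM. Through these opposite changes the sum of the repressors E2F4 to E2F8 went only from 51.9 ± 1.26 to 49.6 ± 0.565 FPKM. Activators therefore made up 49.5% ± 1.26 of the E2F pool in control and 16.2% ± 0.576 with UDCA, of which E2F3 was 14.8% ± 0.357. E2F4 alone went from 23.1% ± 0.845 to 53.6% ± 1.27, E2F6 from 9.33% ± 0.309 to 18.4% ± 1.06, and the atypical pair from 16.6% ± 0.265 to 4.49% ± 0.335. These shares describe transcripts, not proteins.

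**Figure D4:**
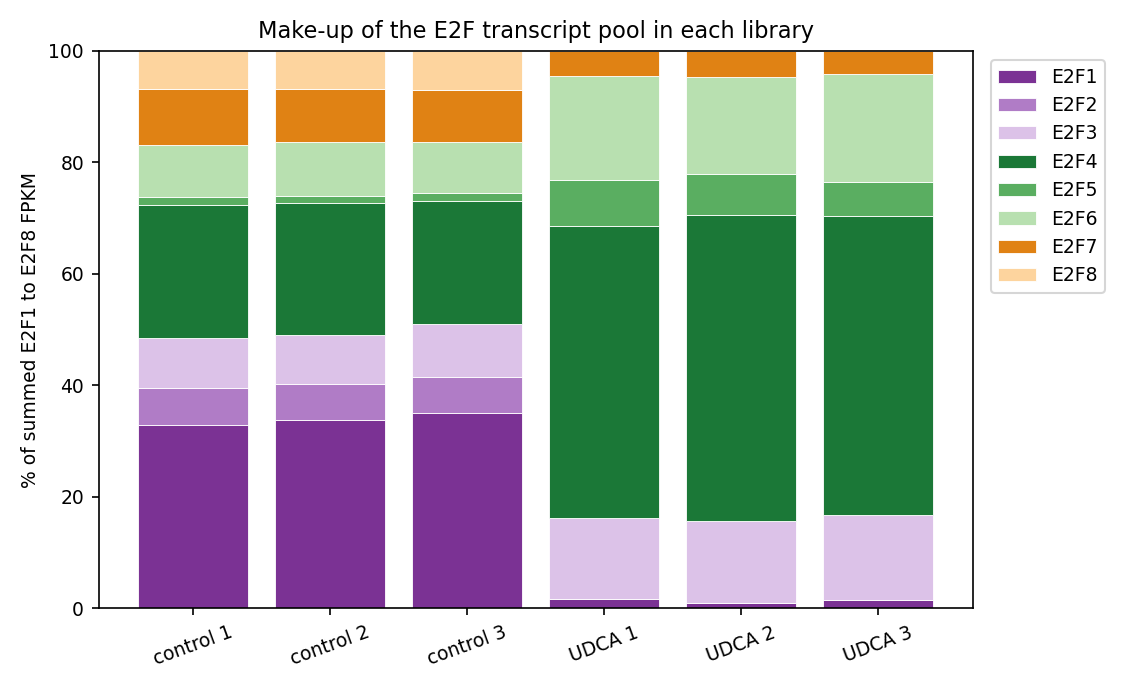
Share of each gene in the summed FPKM of E2F1 to E2F8, 1 bar per library, with activators in purple, E2F4 to E2F6 in green and the atypical members in orange. E2F1 is the largest share in the 3 control libraries, and E2F4 takes over 50% in the 3 UDCA libraries.

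Genes that act with or under the E2Fs are given next by list, and each count stands against the 80.8% of all tested genes that were called, 35.7% lower and 45.1% higher. Among the pocket proteins, RB1, the retinoblastoma protein that binds the activators, was at 17.7 ± 0.431 and 17.4 ± 0.610 FPKM and did not pass (log2 change -0.018, adjusted p = 0.647, limma). RBL1, which encodes p107 and is a known E2F target, fell from 10.1 ± 0.0282 to 1.61 ± 0.129 FPKM. RBL2, which encodes p130, the partner of E2F4 in quiescent cells, rose from 11.4 ± 0.409 to 14.2 ± 0.160 FPKM (log2 change 0.30, adjusted p = 0.000138, limma). Of its exon bases 18.2% lie in other genes, so its level is uncertain to that extent.

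Of the MuvB core, which joins E2F4 and p130 in DREAM, and its partners, 7 of 8 genes were tested, with 5 lower and 1 higher (35.7% and 45.1% over all genes) and a median log2 change of -0.31. MYBL2 and FOXM1, the activators that bind MuvB in dividing cells, fell from 69.4 ± 1.27 to 0.165 ± 0.0406 FPKM and from 47.6 ± 1.38 to 0.849 ± 0.0740 FPKM. Among core subunits LIN9 fell from 5.28 ± 0.166 to 0.755 ± 0.116 FPKM, while LIN54, the DNA-binding subunit, rose from 3.64 ± 0.292 to 5.16 ± 0.302 FPKM. MYBL2, FOXM1 and LIN9 were under 1 FPKM in every UDCA library, so the filter fixed their direction. DYRK1A, the kinase that assembles DREAM, was at 2.99 ± 0.119 and 2.92 ± 0.120 FPKM and did not pass. LIN37 was under the minimum level, and 54.0% of its exon bases lie in other genes.

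Of the G1 cyclins and kinases that free E2Fs from pocket proteins, 7 of 8 tested genes were lower and none higher, where 35.7% of all genes were lower. Their median log2 change was -1.24. CDK2 fell from 9.84 ± 0.839 to 1.98 ± 0.295 FPKM and CCNE2, a cyclin E gene, from 3.96 ± 0.363 to 0.254 ± 0.0480 FPKM, although 37.1% of the exon bases of CCNE2 lie in other genes. CCNE2 was under 1 FPKM in every UDCA library, so the filter fixed its direction. CDK6, a D-cyclin kinase, fell from 17.2 ± 0.813 to 7.30 ± 0.251 FPKM. CDC25A, the phosphatase that activates CDK2, fell from 6.85 ± 0.345 to 1.35 ± 0.187 FPKM. CCNE1, the other cyclin E gene, did not pass (log2 change -0.15, adjusted p = 0.054, limma) and was called lower without control replicate 1 (adjusted p = 0.0161, over a range of 0.00969 to 0.162). Of the CDK inhibitors 3 were tested: CDKN1A rose, and CDKN1B and CDKN2D fell, CDKN2D from 10.4 ± 0.929 to 3.40 ± 0.209 FPKM. CDKN2A, CDKN2B and CDKN2C were not among the genes listed and were not analysed here.

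All 4 ubiquitin ligase subunits that act on E2Fs were lower, as were 35.7% of all genes, and their changes were of unequal size. CDC20 fell most, from 120 ± 0.793 to 0.747 ± 0.122 FPKM (log2 change -6.11). CCNF, the cyclin F subunit that marks activator E2Fs for degradation, fell from 8.73 ± 0.0331 to 0.609 ± 0.0365 FPKM, and SKP2 fell from 14.1 ± 0.657 to 6.66 ± 0.289 FPKM. CDC20 and CCNF were under 1 FPKM in every UDCA library, so the filter fixed their direction. FZR1, the APC/C activator of G1, moved least, from 12.5 ± 0.225 to 11.3 ± 0.181 FPKM (adjusted p = 0.00356, limma).

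In the Polycomb complex of E2F6, 6 of 12 genes were higher and 3 lower, shares near those of all genes (45.1% and 35.7%). The median log2 change was 0.16, beside 0.095 for all genes. MAX, which recruits the complex together with MGA, rose from 9.21 ± 0.459 to 17.8 ± 0.609 FPKM and WDR5 from 16.7 ± 0.211 to 25.3 ± 0.422 FPKM. HDAC1, the deacetylase, fell from 45.8 ± 1.79 to 15.8 ± 0.701 FPKM. PCGF6, the subunit that defines this complex, rose from 4.87 ± 0.318 to 5.99 ± 0.387 FPKM. HDAC2, among the 6, lost its call with median-ratio scaling (adjusted p = 0.217) and quantile normalization (0.0793), over a range of 0.000212 to 0.217. Of the germline genes that E2F6 represses, 3 of 6 were tested. STAG3, with 32.3% of its exon bases in other genes, and TUBA3C, which shares near-identical sequence with TUBA3D, were lower, and TUBA3D did not pass. With STAG3 under 1 FPKM in every UDCA library, the filter fixed its direction.

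Of the chromatin cofactors of E2Fs and pocket proteins, 5 of 10 were lower and 4 higher (median log2 change -0.19), close to the shares over all genes (35.7% and 45.1%). KAT2B, an acetylase of E2F1, fell from 24.3 ± 0.673 to 3.94 ± 0.209 FPKM, and SUV39H1, a histone methylase recruited by the retinoblastoma protein, fell from 5.50 ± 0.255 to 0.350 ± 0.0866 FPKM. SUV39H1 was under 1 FPKM in every UDCA library, so the filter fixed its direction. SIN3B, a corepressor that works with E2F4 in quiescent cells, rose from 8.57 ± 0.470 to 17.2 ± 0.699 FPKM, and TRRAP rose from 12.2 ± 0.191 to 18.9 ± 0.372 FPKM.

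Below the E2Fs, the S-phase targets fell almost without exception, with 29 of 30 tested genes lower (35.7% over all genes), 1 higher and a median level of 6.27% of control (median log2 change -2.78). On the log2(FPKM + 1) scale the largest changes were those of TK1 (-6.16) and RRM2 (-4.77). As ratios of mean FPKM, MCM10 (399-fold lower, on 6 reads with UDCA) and CDC45 (384-fold, on 9 reads) exceeded RRM2 (165-fold) and TK1 (129-fold), and both were named after their values were seen. RRM2, MCM10 and CDC45 were under 1 FPKM in every UDCA library, so the filter fixed their direction. The same held for CCNA2, CDC6, MCM4, TYMS, POLA2, CHEK1, BRCA1, CLSPN, UHRF1, ORC1 and LIG1. The part of the count of lower genes that these genes make up lends no support. The smallest falls were those of SLBP, the histone mRNA binding protein, from 36.5 ± 0.417 to 33.5 ± 1.53 FPKM, and POLA2, which has 35.1% of its exon bases in other genes. SLBP lost its call when control replicate 2 was left out (adjusted p = 0.0536, over a range of 0.000621 to 0.0536). The gene called higher was EZH2, the methylase of Polycomb complex 2, at 24.9 ± 0.273 and 26.8 ± 0.426 FPKM, and its sign turned with median-ratio scaling (log2 change -0.0027, adjusted p = 0.926, over a range of 0.00499 to 0.926).

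The E2F motif was found in a promoter window of 17 of the 27 S-phase targets with an entry (63.0%), and of 12.6% of the 9089 tested protein-coding genes with an entry. The 27 were not limited to tested genes. They were listed because they are E2F targets, so a higher share may be built into the choice and is no result of these data. Over those 9089 genes, 80.5% of the tested protein-coding genes, the motif went with a small difference only. Of the 1149 genes with a match 43.4% were lower and 40.6% higher, against 38.8% and 46.0% of the 7940 genes without. The median log2 change was -0.016 with a match and 0.065 without. These are descriptions with no test, and genes are not independent replicates.

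Of the apoptosis targets of E2F1, 4 of 9 tested genes were lower and 4 higher (median log2 change 0.071), near the shares over all genes (35.7% and 45.1%). TP73, a p53 relative and a direct E2F1 target, fell from 3.18 ± 0.160 to 0.443 ± 0.0545 FPKM, and APAF1, the apoptosome scaffold, fell from 4.09 ± 0.339 to 1.66 ± 0.0821 FPKM. TP73 was under 1 FPKM in every UDCA library, so the filter fixed its direction. PMAIP1 and BBC3, which encode the BH3-only proteins NOXA and PUMA and answer to other stress factors as well, rose from 19.7 ± 0.896 to 55.8 ± 3.18 FPKM and from 2.02 ± 0.133 to 6.23 ± 0.648 FPKM.

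**Figure D5:**
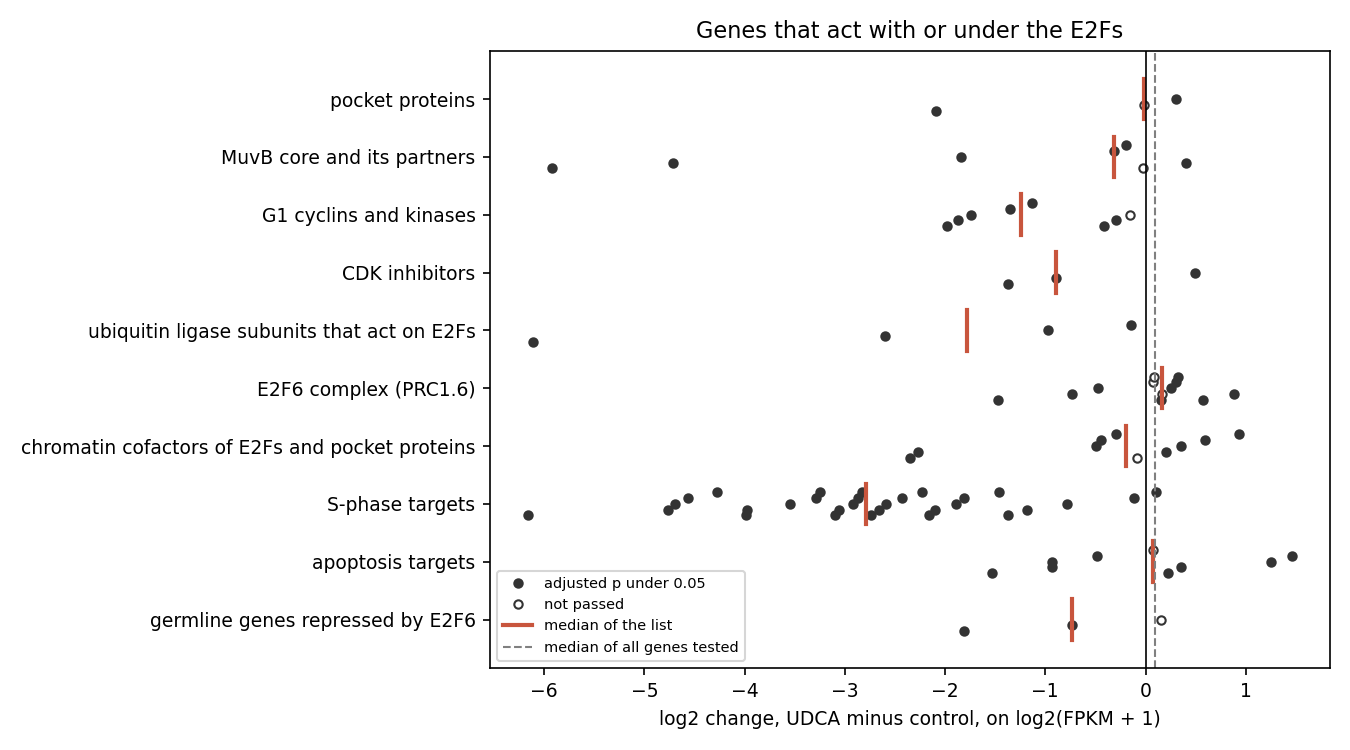
Log2 change (UDCA minus control, on log2(FPKM + 1)) of each tested gene in 10 lists of E2F regulators, partners and targets, 1 point per gene, filled where the adjusted p is under 0.05, with a bar at the median of each list. S-phase targets lie far left with a median of -2.78, whereas the E2F6 complex and the apoptosis targets lie on both sides of 0.

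Over all lists outside the family, 89 of 100 genes were tested, with 62 lower and 18 higher, so that 9 did not pass. Those of the 62 under 1 FPKM in every UDCA library could only be lower. Over all genes 80.8% were called, 35.7% as lower and 45.1% as higher. The genes whose pattern over the 6 libraries was most like that of E2F1 were PODXL, NCAPG, PTTG1, SHCBP1 and KIF14, by the root mean square difference of log2(FPKM + 1) from the control mean of each gene (0.111 to 0.131). PODXL encodes a cell-surface sialomucin and went from 86.2 ± 1.59 to 3.13 ± 0.210 FPKM, and NCAPG, a condensin subunit, went from 22.5 ± 1.37 to 0.134 ± 0.00485 FPKM. With 2 groups, this measure is set mostly by the size of the change on the log2(FPKM + 1) scale. As ratios of mean FPKM the falls were unlike, at 42.2-fold for E2F1, 27.5-fold for PODXL and 25.3-fold for PTTG1. NCAPG was 168-fold lower, KIF14 527-fold and SHCBP1 675-fold.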

How the data were processed

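For every gene and library the deposited table holds a single number with no unit named. The unit was inferred as FPKM: multiplied by merged GENCODE 29 exon lengths, 100% of the deposited values became whole reads to within 0.01 reads. HISAT2, Bowtie2 2.0.6 and the build GRCh38 are listed, without roles, per the submitters' processing notes. Not given in the sources used here were the counting tool, strand use and the handling of shared reads. Symbols came from GENCODE 29, and 33873 of 33890 gene coordinates equalled it. Promoter sequences came from RefSeq (GRCh38.p14), matched by symbol.

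The 14380 genes that reached 1 FPKM in 3 or more of the 6 libraries were tested with limma-trend 3.58.1 (R 4.3.3) on log2(FPKM + 1), 2-sided, with Benjamini-Hochberg adjustment over all of them at 0.05. A gene under 1 FPKM in all libraries of a group was tested only if all libraries of the other group reached it, which fixed its direction. A count model was planned only for a table of counts. Reads were recovered from the FPKM for depth, bounds and limma's voom. Replicate pairs differed by more than sampling noise (chi-square over degrees of freedom between 1.67 and 2.73), and each library counted as 1 sample. The test was checked on simulated reads. Python 3.11.15 made tables and plots.

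The members and lists were chosen with earlier results of these data known, so list counts are descriptions. Named genes were all members, any member of lists of up to 12 genes, and, of the longer list, the largest and smallest changes in each direction. Genes of the longer list under 1 FPKM in every UDCA library were named as well. Genes most like E2F1 were limited to 5, and those named only by a clone were passed over. Alternatives were no filter, a pseudocount of 0.1, quantile normalization, median-ratio scaling, totals without mitochondrial genes, voom, a replicate block and leaving out each library.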

Additional observations from a re-analysis of the deposited data

How the results depend on the processing

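No member changed sign under any of the 13 alternatives, and E2F1, E2F2, E2F4, E2F5, E2F7, E2F8 and TFDP1 kept their calls in all 13. For E2F1, E2F2 and E2F8, whose direction the filter fixed, the unchanged sign lends no support. The number of members called was 8 or 9 in each, 8 to 9 when a library was left out. Pathway genes called numbered 79 to 82 and all genes called 11218 to 11818, or 14451 with no filter, which tests more genes. The values gave no sign that replicate numbers pair the samples, though correlations this low cannot exclude it. Deviations of same-numbered libraries correlated at 0.0143, -0.00119 and 0.00725, and control replicate 1 correlated best with UDCA replicate 2. With the replicate block 8 members, 80 pathway genes and 11503 of all genes were called, and E2F3 was lost (adjusted p = 0.0617, over a range of 0.00282 to 0.149). E2F3 was also lost with no filter (0.0667) and voom (0.0651), and missed the threshold narrowly with a pseudocount of 0.1. Of the pathway genes, EZH2 turned from 0.10 to -0.0027 with median-ratio scaling. RB1 was called lower there (log2 change -0.12, adjusted p = 0.0107). CCNE1 was called lower under 4 alternatives, among them totals without mitochondrial genes (adjusted p = 0.0251). The cause was not tested. Low UDCA counts of E2F1, E2F2 and E2F8 limit the precision of their folds. The interval given for E2F2 and the floor given for E2F8 cover counting error only, and E2F1 was given neither.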
